A study of Mus musculus with 6 samples.

Results

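Genes for cardiac ion channels and gap junctions were examined as a set of 29, which encode potassium, sodium, calcium and pacemaker channel subunits, connexins, and the sodium-calcium exchanger. The genes were picked by function and found by the symbol of their probe set, the group of array probes that is read as a single value. All 29 were on the array with 1 probe set each, among 22206 probe sets that stand for 19505 named genes. RNA came from hearts of *Col1a2-/-* mice (n = 3, hearts 2767, 2770 and 3200) and of *Col1a2+/-* mice (n = 3, hearts 2769, 3201 and 3294), collected at 2 months of age from a C57/BL6 background. Each heart was hybridised to its own Affymetrix Clariom S array, and the numbers are those in the sample labels. *Col1a2* encodes the α2 chain of type I collagen, and both genotypes carry a germline knockout-first allele, a cassette placed in the gene, on both copies in *Col1a2-/-* mice and on a single copy in *Col1a2+/-* mice. No wild-type heart was arrayed, so the comparison asks how hearts with no intact copy differ from hearts with one. The large cassette could also affect genes next to *Col1a2*, a limit that the study itself names. The labels describe whole hearts, whereas the methods describe whole ventricles.

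In a cardiomyocyte, the action potential begins with sodium entry, is carried on by calcium entry through L-type channels, which also sets off contraction, and ends as potassium leaves the cell. In mouse ventricles, the transient outward potassium currents make repolarization fast, and the inward rectifier holds the resting potential between beats. Pacemaker and T-type calcium channels are best known from nodal cells, and connexins form the gap junctions that pass current from one cell to the next.

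Signals are given on the log2 scale, as the authors deposited them, so a difference of 1 is a doubling. *Col1a2* itself had signals of 6.86, 6.84 and 6.48 in *Col1a2-/-* hearts and of 9.47, 9.06 and 9.18 in *Col1a2+/-* hearts, a difference of −2.51 (adjusted p = 0.00626 from limma), in the direction of the labels. The medians of the arrays lay between 6.64 and 6.67, and cardiomyocyte marker genes averaged 18.44 to 18.54 in *Col1a2-/-* hearts and 18.50 to 18.56 in *Col1a2+/-* hearts. *Col1a2+/-* heart 3294 stood apart from the other 5. Of 10 atrial myocyte markers, 8 had their highest signal in it, and their summed signal was 17.35 to 17.68 in *Col1a2-/-* hearts and 16.34, 16.06 and 18.89 in *Col1a2+/-* hearts 2769, 3201 and 3294. *Bmp10*, an atrial growth factor gene, reached 13.89 there and stayed at 3.53 to 5.35 elsewhere. The Y-linked *Uty* was at 2.65 there and at 11.58 to 11.90 elsewhere. *Ucp1*, a brown fat gene, was at 8.33 there and at 3.60 to 4.30 elsewhere, and 4 of 6 brown fat markers had their highest signal in this heart. Over all probe sets, 20.2% had their highest signal in it. Besides *Ucp1*, *Adipoq* stood out, at 7.78 there and at 5.14 to 5.99 elsewhere. *Elovl3* was only just highest, at 4.09 against 3.96 in heart 2769, as was *Cox8b*, at 15.48 against 15.30 in heart 3201. The labels give no sex. The numbers of the hearts fall into a series starting with 27, with 2 *Col1a2-/-* hearts and 1 *Col1a2+/-* heart, and a series starting with 32, with 1 *Col1a2-/-* heart and 2 *Col1a2+/-* hearts. What the series stand for is not given in the sources used here.

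No difference in a channel or connexin gene was detected between *Col1a2-/-* and *Col1a2+/-* hearts once p-values were adjusted. None of the 29 passed an adjusted p under 0.05 from limma, with adjusted p-values between 0.906 and 0.999. Over all probe sets, 1 passed, or 0.0045%, and this was *Col1a2*. At an unadjusted p under 0.05, 1 of the 29 was lower in *Col1a2-/-* hearts, the inward rectifier gene *Kcnj2*, and 0 were higher. Over all probe sets, 2.79% were lower, 2.67% were higher, and 5.45% passed in either direction, which puts the count of the set near the background. In whole tissue, fewer cells of a type and less RNA per cell cannot be told apart.

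The mean signal was lower in *Col1a2-/-* hearts for 21 of the 29 genes, or 72.4%, and higher for 8. The background was 50.1% of all probe sets, and 48.3% of genes with a signal above the dim limit. This limit, a log2 signal of 5.98, was taken from 1469 chemosensory receptor probe sets, which stand here for genes a heart does not use, at their 95th percentile. Of the 29 genes, 27 had a mean above it, and *Kcna4* and *Cacna1d* did not. The median log2 difference of the set was −0.06, against 0.00 over all probe sets. Without *Col1a2+/-* heart 3294, 16 genes had a lower mean and 13 a higher mean in *Col1a2-/-* hearts, and the median was −0.02. Signals did not overlap between genotypes for 2 of the 29 genes, *Kcnj2* and the transient outward gene *Kcnd2*, both lower in *Col1a2-/-* hearts. Over all probe sets this was so for 10.6%, with 5.47% lower and 5.13% higher in *Col1a2-/-* hearts.

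**Figure D1:**
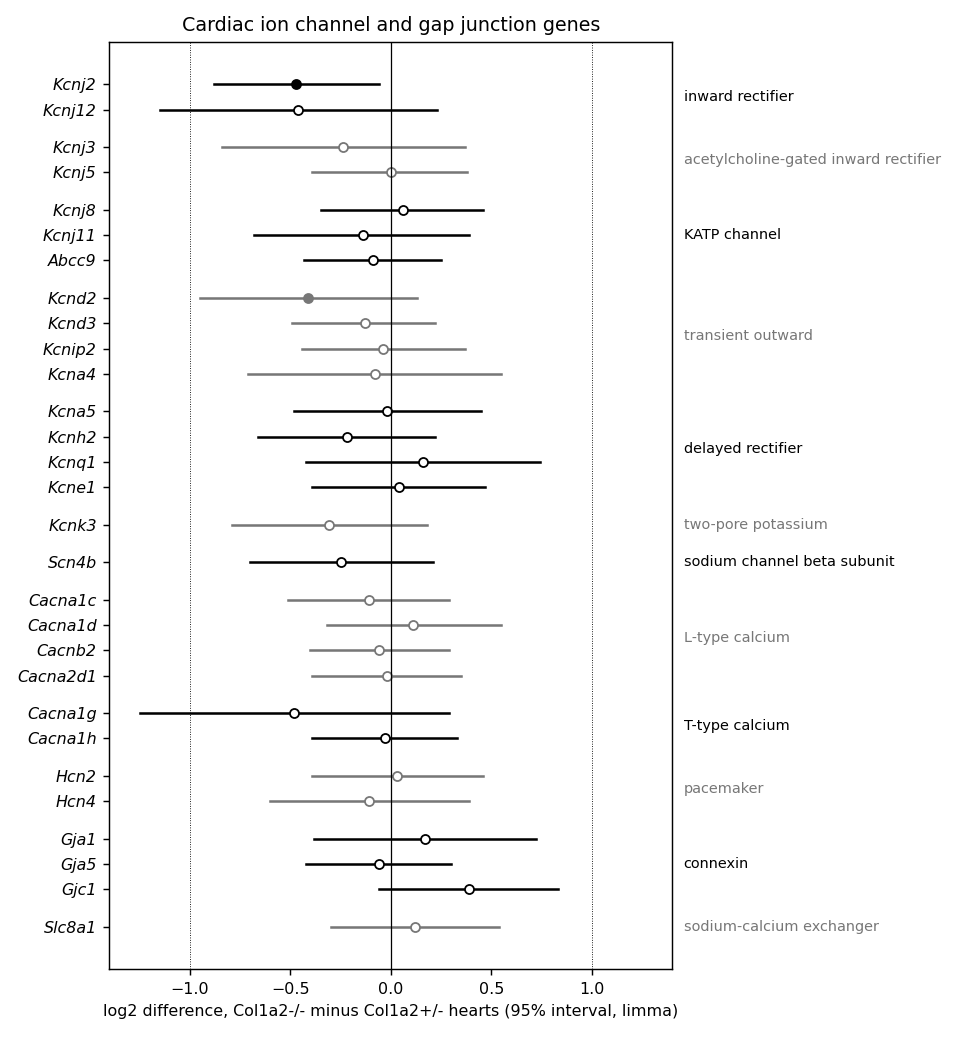
Log2 difference of each of the 29 genes, *Col1a2-/-* minus *Col1a2+/-* hearts (n = 3 each, horizontal axis), with its 95% interval from limma, in groups by role. Filled points mark *Kcnj2* and *Kcnd2*, whose hearts did not overlap between genotypes, and only the interval of *Kcnj2*, −0.88 to −0.06, leaves out 0. Dotted lines mark 2-fold in each direction.

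The size of a change that these hearts could have missed is given by the intervals. The 95% interval of the log2 difference stayed within 1.5-fold in either direction for 15 of the 29 genes and within 2-fold for 27. It reached past 2-fold for *Kcnj12* and *Cacna1g*. *Cacna1d* is in both counts and *Kcna4* in that of 27. Both genes are under the dim limit, where the interval does not bound a change in RNA. Signals of a gene spread over 0.17 to 1.52 across the 6 hearts, and over less than 0.5 for 12 genes.

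*Kcnj2* encodes the main pore subunit of the inward rectifier of ventricular myocytes. Its signal was 8.37, 8.52 and 8.82 in *Col1a2-/-* hearts 2767, 2770 and 3200, and 9.10, 9.15 and 8.88 in *Col1a2+/-* hearts 2769, 3201 and 3294. Every *Col1a2-/-* heart was below every *Col1a2+/-* heart, and the nearest, 3200 and 3294, were close together. The mean was 8.57 ± 0.23 for *Col1a2-/-* and 9.04 ± 0.14 for *Col1a2+/-* (SD over 3 hearts each). The log2 difference of −0.47 (standard error 0.18, unadjusted p = 0.0278, adjusted p = 0.906 from limma) is a fold of 0.721. An exact two-sided permutation test of these values gave p = 0.1, the lowest that can be had from 3 hearts against 3. The difference was −0.65 within the series of 27 and −0.19 within the series of 32. It was −0.55 without heart 3294 (unadjusted p = 0.0235), and leaving out each heart in turn gave −0.60 to −0.37 with unadjusted p-values of 0.014 to 0.0975. The call was lost without *Col1a2-/-* heart 2767 (−0.37) or 2770 (−0.45), without *Col1a2+/-* heart 2769 (−0.45) or 3201 (−0.42), and with the series as a block (−0.42, unadjusted p = 0.061, adjusted p = 0.963).

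*Kcnj12*, which encodes a second inward rectifier subunit of the same family, had a mean difference of nearly the same size but with hearts that overlapped. The signal was 9.39, 9.75 and 8.85 in *Col1a2-/-* hearts and 9.35, 9.65 and 10.37 in *Col1a2+/-* hearts. Heart 3200 was the lowest and heart 3294 the highest, with the other 4 hearts between 9.35 and 9.75. The log2 difference was −0.46 (95% interval −1.15 to 0.23, unadjusted p = 0.164 from limma) and was −0.17 without heart 3294. It was 0.22 in the series of 27 and −1.16 in the series of 32.

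The acetylcholine-gated inward rectifier, which slows the beat under vagal input and is strongest in atria and nodes, is built from the products of *Kcnj3* and *Kcnj5*. *Kcnj3* had signals of 12.45, 12.02 and 12.32 in *Col1a2-/-* hearts and of 11.89, 12.70 and 12.91 in *Col1a2+/-* hearts. The *Col1a2+/-* hearts spanned the widest range, with heart 2769 lowest and heart 3294 highest, and enclosed the *Col1a2-/-* hearts. The log2 difference was −0.24 (95% interval −0.84 to 0.37), and −0.03 without heart 3294, the heart with the high atrial markers. Without heart 2769 it was −0.54 with an unadjusted p of 0.0295 (adjusted p = 0.744 from limma). *Kcnj5* averaged 11.39 in both genotypes, with an interval of −0.39 to 0.38.

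The KATP channel links the membrane potential to the energy state of the cell, with pores from *Kcnj11* or *Kcnj8* and the regulatory subunit from *Abcc9*. *Kcnj11*, the pore of cardiomyocytes, had signals of 10.91, 10.49 and 10.22 in *Col1a2-/-* hearts and of 10.38, 10.66 and 11.02 in *Col1a2+/-* hearts, which overlapped. Its log2 difference was −0.14 (95% interval −0.68 to 0.39), and 0.02 without heart 3294. *Kcnj8*, whose pore is known from vascular smooth muscle and pericytes, averaged 10.09 ± 0.20 in *Col1a2-/-* hearts and 10.04 ± 0.17 in *Col1a2+/-* hearts. *Abcc9* had the narrowest range of the set, with 15.20, 15.23 and 15.34 in *Col1a2-/-* hearts and 15.37, 15.32 and 15.35 in *Col1a2+/-* hearts. The log2 difference of *Abcc9* was −0.09 (95% interval −0.43 to 0.25). Pericyte markers, read beside these genes, averaged 10.18 to 10.23 in *Col1a2-/-* hearts and 9.84 to 10.02 in *Col1a2+/-* hearts. Of these 8, *Notch3* and *Mcam* were higher at an unadjusted p under 0.05 (adjusted p = 0.872 for each from limma), and 0 were lower. Over all probe sets 2.67% were higher at that threshold. So were 2 of 6 fibroblast markers and 2 of 7 nerve and Schwann cell markers, so this was not particular to pericytes. The part of pericytes in the values of *Kcnj8* and *Abcc9* was not tested.

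The transient outward current gives mouse myocytes their early repolarization, and *Kcnd2* encodes one of its pore subunits. Its signal was 9.42, 8.64 and 9.51 in *Col1a2-/-* hearts and 9.69, 9.54 and 9.59 in *Col1a2+/-* hearts. The *Col1a2+/-* hearts lay close together, *Col1a2-/-* hearts 2767 and 3200 were just below them, and heart 2770 was well below. The mean was 9.19 ± 0.48 for *Col1a2-/-* and 9.60 ± 0.08 for *Col1a2+/-* (SD over 3 hearts each). The log2 difference was −0.41 (standard error 0.24, 95% interval −0.95 to 0.13, unadjusted p = 0.117, adjusted p = 0.923 from limma), a fold of 0.751. It was −0.66 within the series of 27 and −0.05 within that of 32. A single heart set most of its size, since leaving out each heart in turn gave −0.57 to −0.14, the smallest without heart 2770.

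The other genes of this current differed by less. *Kcnd3*, which encodes the companion pore subunit, had signals of 7.26, 7.33 and 7.51 in *Col1a2-/-* hearts and of 7.47, 7.61 and 7.43 in *Col1a2+/-* hearts. Its hearts overlapped, with a log2 difference of −0.13 (95% interval −0.49 to 0.22). *Kcnip2*, the auxiliary subunit that brings these pores to the membrane, had 14.68, 14.52 and 14.45 in *Col1a2-/-* hearts and 14.35, 14.58 and 14.83 in *Col1a2+/-* hearts. Its log2 difference was −0.04 (95% interval −0.44 to 0.37), and 0.08 without heart 3294. *Kcna4*, the pore of the slowly recovering component, averaged 5.58 ± 0.50 in *Col1a2-/-* hearts and 5.66 ± 0.37 in *Col1a2+/-* hearts, under the dim limit.

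**Figure D2:**
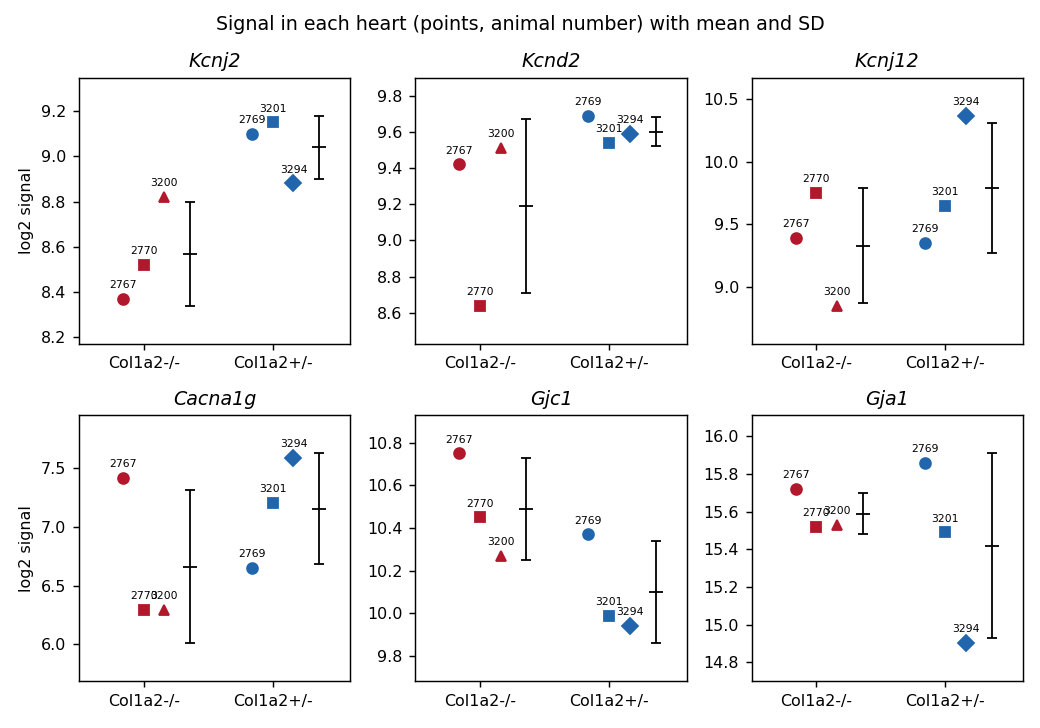
Log2 signal in each heart (points with the heart's number) for 6 of the genes, *Col1a2-/-* on the left and *Col1a2+/-* on the right of each panel, with the mean and SD (n = 3) beside the points and a separate vertical scale per panel. *Kcnj2* and *Kcnd2* do not overlap between genotypes, whereas heart 3294 is at the top of the *Col1a2+/-* hearts for *Kcnj12* and *Cacna1g* and at the bottom for *Gja1*.

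Promoter sequence is shown for *Kcnj2* and *Kcnd2*, because these were the genes whose hearts did not overlap and both were lower in *Col1a2-/-* hearts. The windows are the 250 bases before the RefSeq start site, on build GRCm38.p6, at chr11:111065914-111066163 for *Kcnj2* and chr6:21215096-21215345 for *Kcnd2*, both on the + strand. Capitals mark the GC box GGGCGG, searched on both strands.
Kcnj2: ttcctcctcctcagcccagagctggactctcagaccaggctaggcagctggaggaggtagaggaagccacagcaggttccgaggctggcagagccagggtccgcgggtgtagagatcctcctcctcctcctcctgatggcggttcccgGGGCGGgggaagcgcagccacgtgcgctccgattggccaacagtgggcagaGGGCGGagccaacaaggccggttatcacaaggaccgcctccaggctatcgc
Kcnd2: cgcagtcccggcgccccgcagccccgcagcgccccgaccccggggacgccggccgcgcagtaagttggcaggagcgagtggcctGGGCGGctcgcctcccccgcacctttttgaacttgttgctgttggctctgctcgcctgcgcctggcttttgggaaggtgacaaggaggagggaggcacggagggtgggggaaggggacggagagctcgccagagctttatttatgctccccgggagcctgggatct

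The *Kcnj2* window held 2 GC boxes and the *Kcnd2* window 1, and neither held TATAAA. Of the 29 genes, 22 had a window in the table, 26 windows in all since some genes have several. A GC box was in 14 of the 26 and in 32.7% of 32851 windows over all genes. Channel gene windows were also richer in G and C, with a median of 64.0%, against 52.4% over all windows. TATAAA was in 1 of the 26, that of *Cacna1d*, and in 12.4% of all. The core AAGTG of the NKX2-5 motif was in 7 of the 26 and in 40.7% of all windows, and in neither sequence printed here. The T-box core AGGTG was in 14 of the 26, that of *Kcnd2* among them, and in 46% of all windows. A match says only that the letters are present.

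The delayed rectifier genes carry the later phase of repolarization, and none of the 4 passed an unadjusted p under 0.05. *Kcnh2*, the rapid component in larger mammals, had signals of 12.46, 12.00 and 12.20 in *Col1a2-/-* hearts and of 12.45, 12.20 and 12.69 in *Col1a2+/-* hearts. Its log2 difference was −0.22 (95% interval −0.66 to 0.22) and was nearly equal in the series, −0.22 in that of 27 and −0.24 in that of 32. *Kcna5*, the ultrarapid component, averaged 8.98 ± 0.20 in *Col1a2-/-* hearts and 9.00 ± 0.32 in *Col1a2+/-* hearts. *Kcnq1*, the pore of the slow component, had 9.82, 9.83 and 9.22 in *Col1a2-/-* hearts and 9.65, 8.98 and 9.74 in *Col1a2+/-* hearts, so 1 heart of each genotype was below the rest. Its log2 difference was 0.16 (95% interval −0.42 to 0.74), and −0.08 without *Col1a2+/-* heart 3201. *Kcne1*, its auxiliary subunit, averaged 6.91 ± 0.24 in *Col1a2-/-* hearts and 6.87 ± 0.19 in *Col1a2+/-* hearts. *Kcnk3*, an acid-sensitive background potassium channel, had signals of 11.01, 10.56 and 10.25 in *Col1a2-/-* hearts and of 10.76, 10.93 and 11.05 in *Col1a2+/-* hearts. *Col1a2-/-* heart 2767 lay among the *Col1a2+/-* hearts, while hearts 2770 and 3200 were below all of them. The log2 difference of *Kcnk3* was −0.31 (95% interval −0.79 to 0.18), and −0.51 without heart 2767 (unadjusted p = 0.0337, adjusted p = 0.945 from limma).

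*Scn4b*, a β subunit that modulates the cardiac sodium channel, was the sole sodium channel gene of the set. It had signals of 8.61, 8.54 and 9.14 in *Col1a2-/-* hearts and of 8.86, 9.06 and 9.12 in *Col1a2+/-* hearts. Hearts 2767 and 2770 were below every *Col1a2+/-* heart, and heart 3200 was the highest of the 6. The log2 difference was −0.25 (95% interval −0.70 to 0.21), −0.28 within the series of 27 and 0.05 within that of 32. Without heart 3200 it was −0.44 (unadjusted p = 0.0489, adjusted p = 0.923 from limma).

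No L-type calcium channel gene passed an unadjusted p under 0.05. *Cacna1c*, the pore subunit of the ventricular channel, had signals of 15.15, 15.01 and 15.25 in *Col1a2-/-* hearts and of 15.02, 15.24 and 15.47 in *Col1a2+/-* hearts. *Cacnb2*, the main cardiac β subunit, had 14.47, 14.37 and 14.52 in *Col1a2-/-* hearts and 14.44, 14.52 and 14.57 in *Col1a2+/-* hearts. *Cacna2d1*, the α2δ subunit, averaged 12.63 ± 0.04 in *Col1a2-/-* hearts and 12.65 ± 0.19 in *Col1a2+/-* hearts. Hearts of the genotypes overlapped for all 3. Their log2 differences were −0.11 for *Cacna1c* (95% interval −0.51 to 0.29), −0.06 for *Cacnb2* (−0.40 to 0.29) and −0.02 for *Cacna2d1* (−0.39 to 0.35). *Cacna1d*, the L-type pore known from nodal and atrial cells, averaged 4.93 ± 0.21 in *Col1a2-/-* hearts and 4.82 ± 0.25 in *Col1a2+/-* hearts, under the dim limit. *Slc8a1*, the sodium-calcium exchanger that removes calcium after each beat, had signals of 13.70, 13.83 and 13.37 in *Col1a2-/-* hearts and of 13.71, 13.47 and 13.36 in *Col1a2+/-* hearts. Its log2 difference was 0.12 (95% interval −0.30 to 0.54), and 0.04 without heart 3294.

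The T-type calcium channel genes, *Cacna1g* and *Cacna1h*, encode pores that open at low voltage and serve nodal cells in the adult heart. *Cacna1g* had signals of 7.41, 6.29 and 6.29 in *Col1a2-/-* hearts and of 6.65, 7.20 and 7.58 in *Col1a2+/-* hearts. *Col1a2-/-* heart 2767 was the second highest of the 6, and the other *Col1a2-/-* hearts were the lowest. The log2 difference, −0.48, was the largest of the set and also the least certain, with a 95% interval of −1.25 to 0.29 (unadjusted p = 0.19, adjusted p = 0.937 from limma). It was 0.20 in the series of 27, −1.10 in the series of 32 and −0.26 without heart 3294, whereas without heart 2767 it was −0.86 (unadjusted p = 0.0149, adjusted p = 0.935). *Cacna1h* averaged 8.42 ± 0.06 in *Col1a2-/-* hearts and 8.44 ± 0.15 in *Col1a2+/-* hearts. The pacemaker channel gene *Hcn2* had 7.30, 7.26 and 6.78 in *Col1a2-/-* hearts and 6.95, 7.11 and 7.18 in *Col1a2+/-* hearts. *Hcn4*, the main pacemaker subunit of the sinoatrial node, had 7.93, 7.68 and 7.77 in *Col1a2-/-* hearts and 8.08, 7.43 and 8.19 in *Col1a2+/-* hearts. Both overlapped, with log2 differences of 0.03 for *Hcn2* (95% interval −0.39 to 0.46) and −0.11 for *Hcn4* (−0.60 to 0.39). Without heart 3294 that of *Hcn4* was 0.04. Markers of nodal and conduction cells averaged 5.86 to 6.21 in *Col1a2-/-* hearts and 5.95 to 6.25 in *Col1a2+/-* hearts, and 0 of 9 passed an unadjusted p under 0.05.

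Among the gap junction genes, *Gjc1*, which encodes a connexin of nodal cells and of the embryonic heart, had the largest difference upward of the set. Its signal was 10.75, 10.45 and 10.27 in *Col1a2-/-* hearts and 10.37, 9.99 and 9.94 in *Col1a2+/-* hearts. *Col1a2-/-* hearts 2767 and 2770 were above every *Col1a2+/-* heart, and heart 3200 was between *Col1a2+/-* heart 2769 and the other *Col1a2+/-* hearts. The mean was 10.49 ± 0.24 for *Col1a2-/-* and 10.10 ± 0.24 for *Col1a2+/-* (SD over 3 hearts each), and the log2 difference was 0.39 (standard error 0.20, 95% interval −0.06 to 0.83, unadjusted p = 0.0794, adjusted p = 0.911 from limma), a fold of 1.31. It was 0.22 in the series of 27 and 0.31 in the series of 32. Leaving out each heart in turn gave 0.26 to 0.52, and without *Col1a2+/-* heart 2769, or with a trended and robust prior, the unadjusted p was 0.0343 or 0.0496. *Gja1*, the main connexin of working ventricular muscle, had 15.72, 15.52 and 15.53 in *Col1a2-/-* hearts and 15.86, 15.49 and 14.90 in *Col1a2+/-* hearts. The *Col1a2-/-* hearts lay within the range of the *Col1a2+/-* hearts, in which heart 3294 was 0.78 below the mean of the others. The log2 difference of *Gja1* was 0.17 (95% interval −0.38 to 0.72) with heart 3294 and −0.09 without it. *Gja5*, the connexin of atria and the conduction system, averaged 6.50 ± 0.16 in *Col1a2-/-* hearts and 6.56 ± 0.03 in *Col1a2+/-* hearts (95% interval of the difference −0.42 to 0.30).

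Heart 3294 also stood apart in the channel and connexin genes, in the direction of its deviations more than in their size. It had the highest signal of the 6 for 12 of the 29 genes, or 41.4%, against 20.2% of all probe sets, and the lowest for 4, against 20% of all probe sets. The median deviation of the 29 genes from the mean of the other hearts of their genotype was 0.21 in heart 3294 and between −0.08 and 0.10 in the other 5. Without regard to sign, the median deviation was 0.273 in heart 3294 and 0.25 in *Col1a2+/-* heart 2769. In each of these hearts, 6 genes deviated by more than 0.5. The part of the atrial and Y-linked signals of heart 3294 in its values was not tested beyond fits with a covariate, and that of its brown fat signals was not tested. With the atrial marker level as a covariate, the log2 difference was −0.48 for *Kcnj2*, −0.41 for *Kcnd2*, −0.44 for *Kcnj12*, −0.47 for *Cacna1g* and 0.38 for *Gjc1*. With the Y-linked level it was −0.56 for *Kcnj2*, −0.42 for *Kcnd2*, −0.16 for *Kcnj12*, −0.25 for *Cacna1g* and 0.31 for *Gjc1*. That level was 3.81 in heart 3294 and 10.56 to 10.93 in the others, so this covariate in effect marks that heart. The values without heart 3294 were nearly the same, −0.55, −0.42, −0.17, −0.26 and 0.31. This fit therefore cannot tell the Y-linked signal from any other trait of heart 3294. Once heart 3294 was left out, which sets 3 hearts against 2, 5 of 10 atrial markers passed an unadjusted p under 0.05 upward in *Col1a2-/-* hearts and 0 downward, against 2.58% of all probe sets upward in that fit. Their median log2 difference was 0.99, and none passed an adjusted p under 0.05 (lowest 0.849 from limma). With all 6 hearts, 0 of the 10 passed an unadjusted p under 0.05 in either direction, and their median was 0.16. Heart 3294 had been singled out by these same markers. Leaving it out takes away most of their highest values, so the upward count is no independent result.

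**Figure D3:**
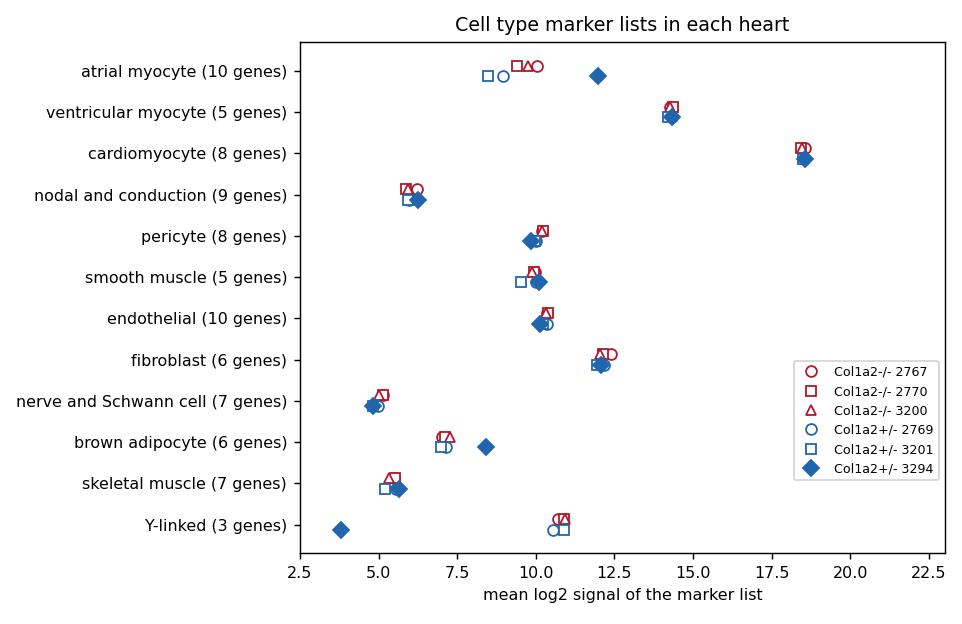
Mean log2 signal of each cell type marker list (rows, number of genes in brackets) in each heart, with *Col1a2-/-* hearts in red and *Col1a2+/-* hearts in blue. Filled diamonds are *Col1a2+/-* heart 3294, which lies at 11.99 for the atrial list, against 8.49 to 10.04 in the other hearts, and at 3.81 for the Y-linked list, against 10.56 to 10.93, while cardiomyocyte and ventricular lists lie close together in all 6.

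The series of heart numbers did not agree in sign for 18 of the 29 genes. The same share over all probe sets was not computed, so this count is not read as a trait of these genes. Each series sets 2 hearts against 1, and some differences were close to 0, such as 0.01 for *Abcc9* in the series of 32. Within the series of 27 the median log2 difference of the set was 0.03, and within the series of 32 it was −0.05. A term for the difference between the series, added after the values were seen and with 2 residual degrees of freedom, passed an unadjusted p under 0.05 for 1 of the 29 genes, *Kcnj12* (−1.38, unadjusted p = 0.0291, adjusted p = 1 from limma), and for 3.76% of all probe sets. *Kcnj2*, *Kcnd2* and *Gjc1* were among those with the same sign in both. For *Kcnj2* and *Kcnd2* this was fixed in advance, since every *Col1a2-/-* heart was below every *Col1a2+/-* heart, so it adds no support.

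**Figure D4:**
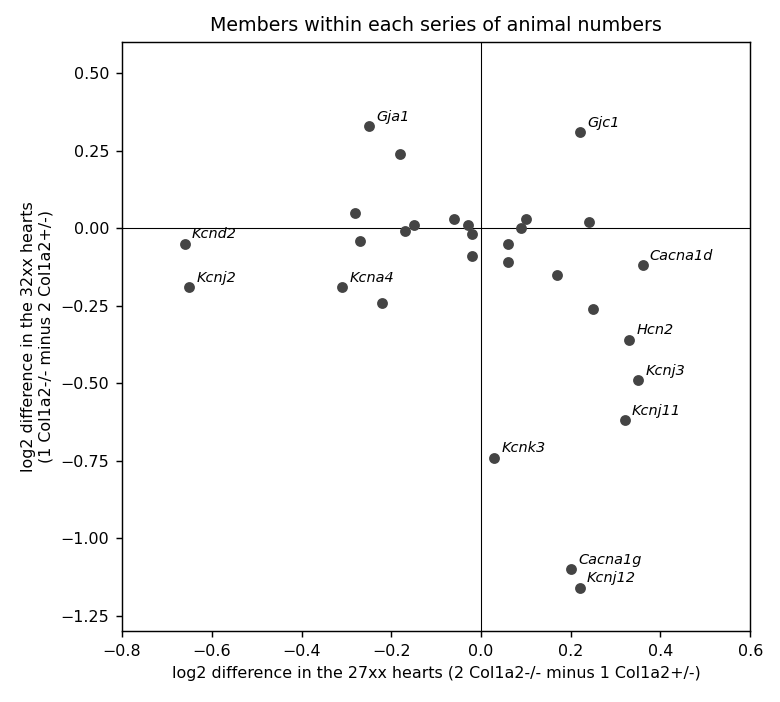
Log2 difference of each of the 29 genes, *Col1a2-/-* minus *Col1a2+/-*, in the hearts numbered in the series of 27 (horizontal axis) and in the series of 32 (vertical axis), with names for genes past 0.3 in either. *Kcnj2* and *Kcnd2* lie at −0.65 and −0.66 in the first series and *Kcnj12* and *Cacna1g* at −1.16 and −1.10 in the second. In all, 18 genes differ in sign, a count with no share over all probe sets beside it.

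Genes that work with these channels were read from the same fit, in 8 lists of 137 measured genes. In all, 6 were higher and 6 lower in *Col1a2-/-* hearts at an unadjusted p under 0.05, against 2.67% and 2.79% of all probe sets. None passed an adjusted p under 0.05, and the median log2 difference was −0.02. Leaving out each heart in turn gave 1 to 6 higher and 2 to 8 lower, with 4 higher and 2 lower without heart 3294. Of 13 other connexins and pannexins and of 6 other sodium channel subunits, 0 passed in either direction.

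Of 35 other potassium channel subunits, 2 were higher and 3 lower in *Col1a2-/-* hearts at that threshold. *Kcnv2*, a subunit that forms no channel alone and modifies others, had signals of 5.54, 5.51 and 5.72 in *Col1a2-/-* hearts and of 5.94, 6.74 and 6.27 in *Col1a2+/-* hearts. These did not overlap, with a log2 difference of −0.73 (unadjusted p = 0.00856, adjusted p = 0.872 from limma) on a mean under the dim limit. *Kcnip1*, a relative of *Kcnip2* best known from neurons, had 5.66, 5.57 and 5.92 in *Col1a2-/-* hearts and 6.02, 6.30 and 7.38 in *Col1a2+/-* hearts. Heart 3294 was far above the rest, and the log2 difference of −0.85 was −0.44 without it, when it no longer passed (unadjusted p = 0.0561). Every *Col1a2-/-* value of *Kcnip1* was under the dim limit, and its mean passed that limit only through the *Col1a2+/-* hearts. *Kcnk2*, a stretch-sensitive background potassium channel, had 6.06, 6.01 and 5.84 in *Col1a2-/-* hearts and 5.48, 5.65 and 5.51 in *Col1a2+/-* hearts, without overlap, a log2 difference of 0.42 (unadjusted p = 0.0249) on a mean under the dim limit. *Kcna1*, a subunit of neuronal delayed rectifiers, differed by −0.50 (unadjusted p = 0.0372) under that limit. With each heart left out in turn, *Kcnv2* stayed under the threshold in 6 of 6 fits, *Kcnip1* in 3, and *Kcnk2* and *Kcna1* in 2 each. Without heart 3294 the unadjusted p was 0.0502 for *Kcnk2* and 0.114 for *Kcna1*.

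Of 19 transcription factors of conduction and chamber identity, 1 was lower and 0 were higher at that threshold. This was *Nkx2-5*, a homeobox factor needed for heart development and for the conduction system. It had signals of 8.08, 8.29 and 8.27 in *Col1a2-/-* hearts and of 8.72, 8.71 and 9.20 in *Col1a2+/-* hearts. Every *Col1a2-/-* heart was below every *Col1a2+/-* heart, with heart 3294 the highest. The log2 difference was −0.66 (standard error 0.19, unadjusted p = 0.00626, adjusted p = 0.872 from limma), −0.54 within the series of 27, −0.68 within that of 32 and −0.50 without heart 3294 (unadjusted p = 0.0194). Its unadjusted p stayed under 0.05 when each of the 6 hearts was left out in turn, unlike that of *Kcnj2*.

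Of 11 ion pumps and exchangers, 2 were higher in *Col1a2-/-* hearts and 0 lower. *Slc12a2*, a sodium-potassium-chloride cotransporter, had signals of 10.92, 11.10 and 10.65 in *Col1a2-/-* hearts and of 10.55, 10.39 and 9.87 in *Col1a2+/-* hearts, without overlap. Its log2 difference was 0.62 (unadjusted p = 0.0199, adjusted p = 0.879 from limma), and 0.42 without heart 3294 (unadjusted p = 0.0686). *Atp2b2*, a calcium pump of the plasma membrane, differed by 0.51 (unadjusted p = 0.0408) under the dim limit. Of 15 other cation and chloride channels, 2 were lower and 0 higher. *Clcn3*, a chloride-proton exchanger of intracellular vesicles, had 11.11, 11.15 and 11.02 in *Col1a2-/-* hearts and 11.45, 11.43 and 11.46 in *Col1a2+/-* hearts. These groups were tight and apart, with a log2 difference of −0.35 (unadjusted p = 0.0424), though the unadjusted p was above 0.05 when any single heart was left out (0.0651 to 0.115). *Trpv4*, a calcium-permeable channel that responds to osmotic and mechanical stimuli, differed by −0.47 (unadjusted p = 0.0274) under the dim limit. Of 25 scaffold and intercalated disc genes, 1 was higher, *Akap5*, which anchors protein kinase A near channels (0.51, unadjusted p = 0.0383), and of 13 other calcium and pacemaker channel subunits 1 was higher, the R-type pore *Cacna1e* (0.48, unadjusted p = 0.0259, under the dim limit). *Atp2b2*, *Trpv4*, *Akap5* and *Cacna1e* each stayed under the threshold in only 2 of the 6 fits with a heart left out. Without heart 3294 the unadjusted p was 0.0137 for *Atp2b2*, 0.0735 for *Trpv4*, 0.13 for *Akap5* and 0.0687 for *Cacna1e*. With the number series as a block it was 0.00709 for *Atp2b2*, 0.0542 for *Trpv4*, 0.0722 for *Akap5*, 0.0566 for *Cacna1e*, 0.0542 for *Clcn3* and 0.0585 for *Kcnip1*.

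**Figure D5:**
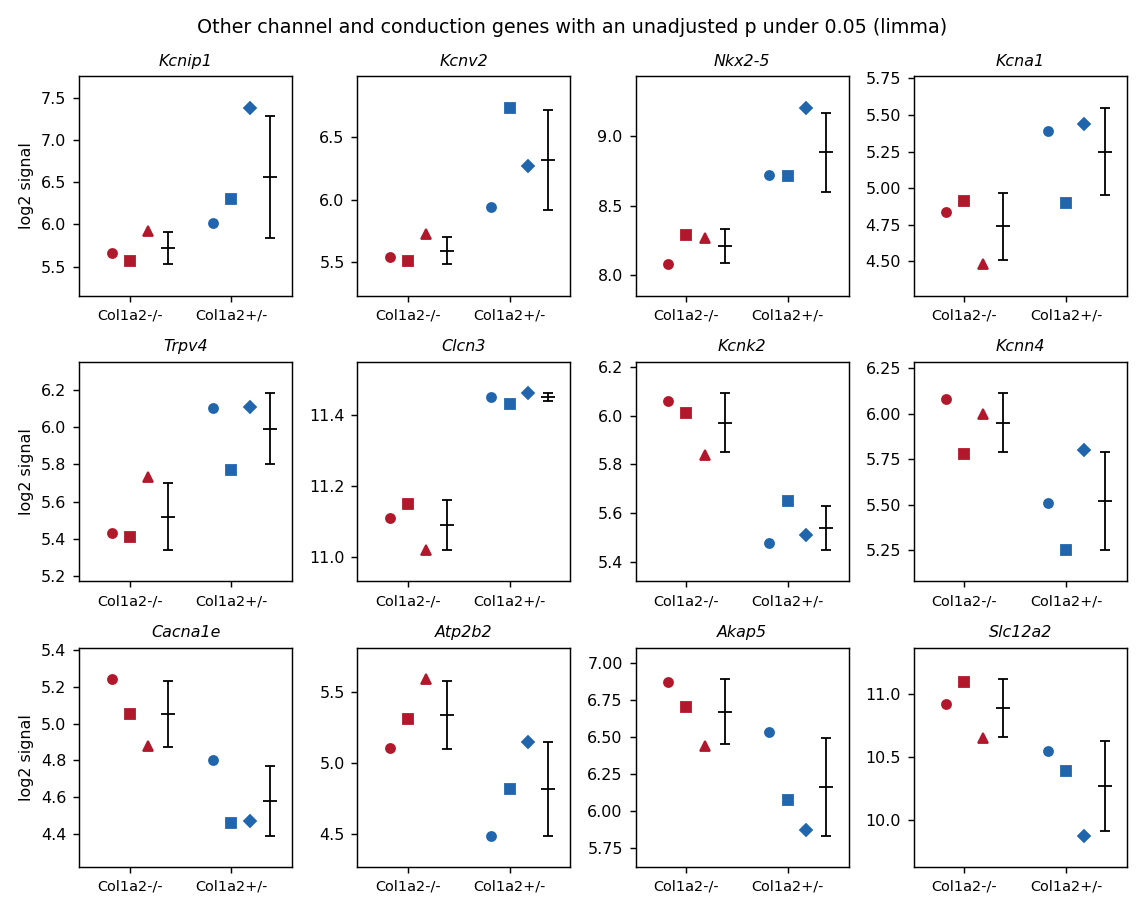
Log2 signal in each heart for the 12 genes of the surrounding lists with an unadjusted p under 0.05 from limma, *Col1a2-/-* in red on the left and *Col1a2+/-* in blue on the right, with the mean and SD (n = 3) beside the points and a separate vertical scale per panel. The genotypes overlap for *Kcna1*, *Kcnn4*, *Atp2b2* and *Akap5* and for none of the other genes shown. Hearts of the same genotype lie closest together for *Clcn3*. Diamonds mark heart 3294, which is far above the other hearts for *Kcnip1*.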

How the data were processed

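Heart RNA of 3 *Col1a2-/-* and 3 *Col1a2+/-* mice had been labelled with biotin and hybridised to arrays. The deposited log2 signals per probe set had been normalised and summarised by the authors. Affymetrix Expression Console is named in the submitters' processing notes and Transcriptome Analysis Console in the methods, and the normalisation method is not given in the sources used here. Of 28846 entries, 6640 control entries were left out, and 2634 of the 22206 tested had no symbol. Genotypes were compared with limma 3.58.1 in R 4.3.3 (lmFit and eBayes, no covariate, 4 residual degrees of freedom), with Benjamini-Hochberg adjustment over all probe sets tested. The code was tested on simulated data. Precision is limited by having 6 arrays.

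The 29 genes and all lists were chosen with earlier results of these data known. Of 160 entries in the surrounding lists 137 had a probe set, and of 94 marker entries 85. Genes were named in full if they had an unadjusted p under 0.05 or no overlap between genotypes, together with the 3 largest differences among the rest, up to 4 genes of each surrounding list by p, and the markers with the widest range. *Kcnn4*, the fifth potassium channel gene past the threshold, is plotted only. *Gja1* was plotted after its values were seen.

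Alternatives were quantile normalisation, median centring, a filter on dim probe sets, a trended and robust prior, the methods' t-test, array weights, the number series as a block, atrial or Y-linked levels as a covariate, each series alone, and leaving out each heart. The term for the difference between series and the counts of the surrounding lists without each heart were added after the values were seen. Promoter windows came from RefSeq. Figures were drawn with matplotlib 3.10.9.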

Additional observations from a re-analysis of the deposited data

How the results depend on the processing

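Of the counts and the median for the 29 genes, the count past an adjusted p under 0.05 was 0 under every alternative, and the lowest adjusted p of any of the genes was 0.744. At an unadjusted p under 0.05, the count lower in *Col1a2-/-* hearts was 1, 0 with the number series as a replicate block, and 0 to 2 when each heart was left out. It was 0 without *Col1a2-/-* heart 2770 or *Col1a2+/-* heart 3201, and 2 without *Col1a2-/-* heart 2767 or 3200. The genes counted changed with the heart left out. They were *Kcnk3* and *Cacna1g* without heart 2767, and *Kcnj2* and *Scn4b* without heart 3200. Without *Col1a2+/-* heart 2769 the gene counted was *Kcnj3*, not *Kcnj2*. The count higher was 0, 1 with the trended and robust prior, and 0 to 1 on leaving out hearts, with 1 without *Col1a2+/-* heart 2769. Genes without overlap numbered 2, 1 after quantile normalisation, and 3 to 8 with a heart left out, where fewer hearts make overlap rarer. The median log2 difference of −0.06 was 0.03 within the series of 27, and −0.09 to −0.02 on leaving out hearts. Array weights and both covariates left the counts past a threshold as they were.

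Direction was the same under every alternative for 6 of the 29 genes, *Kcnj2*, *Kcnd2*, *Kcnd3*, *Kcnh2*, *Cacnb2* and *Gjc1*, and turned under at least 1 for 23. For *Kcnj2* and *Kcnd2*, whose hearts did not overlap between genotypes, many of these alternatives could not turn the direction. These were each series alone, the series as a block, and leaving out a heart. With the number series as a block, the log2 difference turned to 0.07 for *Kcnj5*, 0.13 for *Kcna5* and −0.02 for *Hcn2*. It turned to 0.01 with array weights and 0.00 with the atrial level for *Kcnj5*. With the Y-linked level it turned to 0.07 for *Kcnj5*, −0.02 for *Kcnj8*, 0.03 for *Kcnj11*, 0.09 for *Kcnip2*, 0.08 for *Kcna5*, 0.01 for *Cacna1c*, 0.05 for *Cacna1h*, 0.06 for *Hcn4* and −0.10 for *Gja1*. Within the series of 27 it turned to 0.22 for *Kcnj12*, 0.35 for *Kcnj3*, 0.10 for *Kcnj5*, −0.18 for *Kcnj8*, 0.32 for *Kcnj11*, 0.25 for *Kcnip2*, 0.24 for *Kcna5*, 0.03 for *Kcnk3*, 0.06 for *Cacna1c*, 0.20 for *Cacna1g* and −0.25 for *Gja1*. Within the series of 32 it turned to 0.03 for *Kcnj5*, 0.01 for *Abcc9*, 0.02 for *Kcna5*, −0.15 for *Kcnq1*, 0.00 for *Kcne1*, 0.05 for *Scn4b*, −0.12 for *Cacna1d*, 0.01 for *Cacna2d1*, 0.03 for *Cacna1h*, −0.36 for *Hcn2* and −0.05 for *Slc8a1*. On leaving out each heart, the range crossed 0 for *Kcnj5* (−0.09 to 0.09), *Kcnj8* (−0.02 to 0.17), *Kcnj11* (−0.33 to 0.02), *Kcnip2* (−0.16 to 0.08), *Kcna4* (−0.36 to 0.11), *Kcna5* (−0.20 to 0.08), *Kcnq1* (−0.08 to 0.36), *Kcne1* (−0.09 to 0.15), *Cacna1c* (−0.22 to 0.00), *Cacna1d* (−0.01 to 0.25), *Cacna2d1* (−0.11 to 0.07), *Cacna1h* (−0.10 to 0.05), *Hcn2* (−0.06 to 0.20), *Hcn4* (−0.34 to 0.04), *Gja1* (−0.09 to 0.39) and *Gja5* (−0.14 to 0.02). The cause of these turns was not tested.

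The study states that comparisons were limited to littermates of the same age. Which hearts share a litter is not given in the sources used here. No paired analysis was therefore made, and the number series served as the block. Every gene has 1 probe set, so averaging probe sets gave the same values. Signals of *Kcna4* and *Cacna1d* under the dim limit leave a change of these genes hard to detect.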
